A study of Mus musculus with 60 samples.

Results

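Gene expression in wild-type mice was compared between fetal hindquarters of 17.5 d.p.c. (days post coitum) and entire embryos of 13.5 d.p.c. The 10 samples compared were chosen by their genotype and age labels from the 30 RNA pools of the study, and their 20 arrays from its 60. There were 5 pools of C57BL/6J hindquarters from the later age and 5 pools of C57BL/6J whole embryos from the earlier one, with RNA of 3 animals in each pool (15 animals per group), so variation between single animals is averaged within a pool. Every pool was hybridized to both chips of an Affymetrix set, MOE430A and MOE430B, and values are log2 intensities after the 10 arrays of each chip had been brought to a common distribution. The study itself asked how loss of Mstn, the gene of the growth inhibitor myostatin, alters muscle, and its Mstn-null pools of the same ages are used below only as a separate measurement of the same contrast. Age and dissection change together here, so a difference between the groups cannot be told apart into what changed with age and what was dissected. As in any bulk tissue, fewer cells of a type and less RNA per cell cannot be told apart either.

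Between these ages the mouse limb passes from primary to secondary myogenesis. The first myotubes form in the embryo from muscle progenitors and express embryonic and slow myosins, and in the fetus a larger wave of fibres forms around them and starts to express perinatal and fast contractile proteins. In the same days cartilage templates are replaced by bone, the epidermis stratifies and cornifies, definitive red cells made in the liver take over from primitive ones of the yolk sac, and the gut and liver begin to express their functional genes.

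Arrays within a group resembled each other more among embryos than among hindquarters. The median standard deviation of a probe set was 0.132 between hindquarters pools and 0.0694 between embryo pools. The array farthest from its group was that of hindquarters pool 1 on MOE430B, whose mean correlation with its group was 0.950, while the other hindquarters arrays of that chip lay between 0.981 and 0.984. RNA integrity was read from control probe sets at both ends of a transcript. On MOE430A the 3′ signal of actin exceeded its 5′ signal by 0.295 to 0.538 in hindquarters and 0.068 to 0.214 in embryos, and the same difference for Gapdh was -0.111 to 0.028 in hindquarters and 0.060 to 0.289 in embryos. On both chips the groups did not overlap in either control (exact permutation test over 252 splits, two-sided p = 0.00794 in each of the 4 cases, the smallest value the design allows). The actin difference was higher and the Gapdh difference lower in hindquarters, and their part in the results below was not tested.

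Of 45037 probe sets, 1529 (3.39%) rose and 1243 (2.76%) fell in hindquarters at an adjusted p under 0.05 and at least 2-fold (limma, Benjamini-Hochberg). The median fold was 2.78 among those that rose and 2.46 among those that fell, and 393 and 159 of them reached 4-fold. Without the fold requirement 28.4% of probe sets rose and 31.3% fell, and groups did not overlap for 48.3% of probe sets, so "rose" and "fell" are used here only for changes that met both limits. With the values as deposited, before the common normalization, the split was 1256 higher and 1943 lower, and with each array centred on its median it was 1824 higher and 1092 lower. Counted by genes, each represented by its brightest probe set, 918 of 18193 rose (5.05%) and 513 fell (2.82%), and the groups did not overlap for 53.1% of genes. Counts of list members given below are to be read against these shares of all genes. The median difference over all genes was 0.01 on the log2 scale. Over all probe sets of a gene, 1141 genes had a higher and 878 a lower probe set, and only Hspa4, which encodes a large heat shock protein, had both, with differences of 1.12 and -1.02 for 2 probe sets.

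Taking each gene by its most changed probe set, the 12 with the largest increase included genes known from muscle, intestine, liver, skin and mast cells. Fabp2, the fatty acid-binding protein of the intestinal epithelium, had 12.66, 12.17, 11.59, 12.14 and 11.63 in hindquarters pools 1 to 5, against 5.47, 5.45, 5.46, 5.32 and 5.63 in embryo pools 1 to 5. The groups were far apart, at 94.9-fold (log2 difference 6.57 ± 0.18, SE; adjusted p = 2.5e-10). Ckm, muscle creatine kinase, followed at 51.8-fold and Atp1b4, a muscle protein of the inner nuclear membrane, at 41.5-fold. The others were Apoa4 (40.2-fold), Tnni2 (34.8-fold), Mcpt4 (33.6-fold), Myh8 (32.8-fold), Lor (32.6-fold), Cma1 (31.4-fold), Hdc (28.8-fold), Apoc3 (27.8-fold) and Lgals4 (24.9-fold). The 12 genes with the largest decrease were led by 3 embryonic globins, Hbb-y (185.5-fold in its most changed probe set), Hba-x (82.5-fold) and Hbb-bh1 (49.1-fold). Most of the remaining 9 act in the developing nervous system. Nhlh2, a neuronal basic helix-loop-helix factor, fell 20.1-fold, the neuronal intermediate filament gene Ina 14.2-fold, and the transcription factor genes Sox11, Nr2f1 and Lhx9 11.9-fold, 10.2-fold and 10.1-fold. Dcc, a netrin receptor of growing axons, fell 10.4-fold, Nnat, an imprinted gene of neuronal and endocrine cells, 9.55-fold, and the long noncoding RNAs C130071C03Rik and Mir124-2hg 11.3-fold and 9.73-fold.

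**Figure D1:**
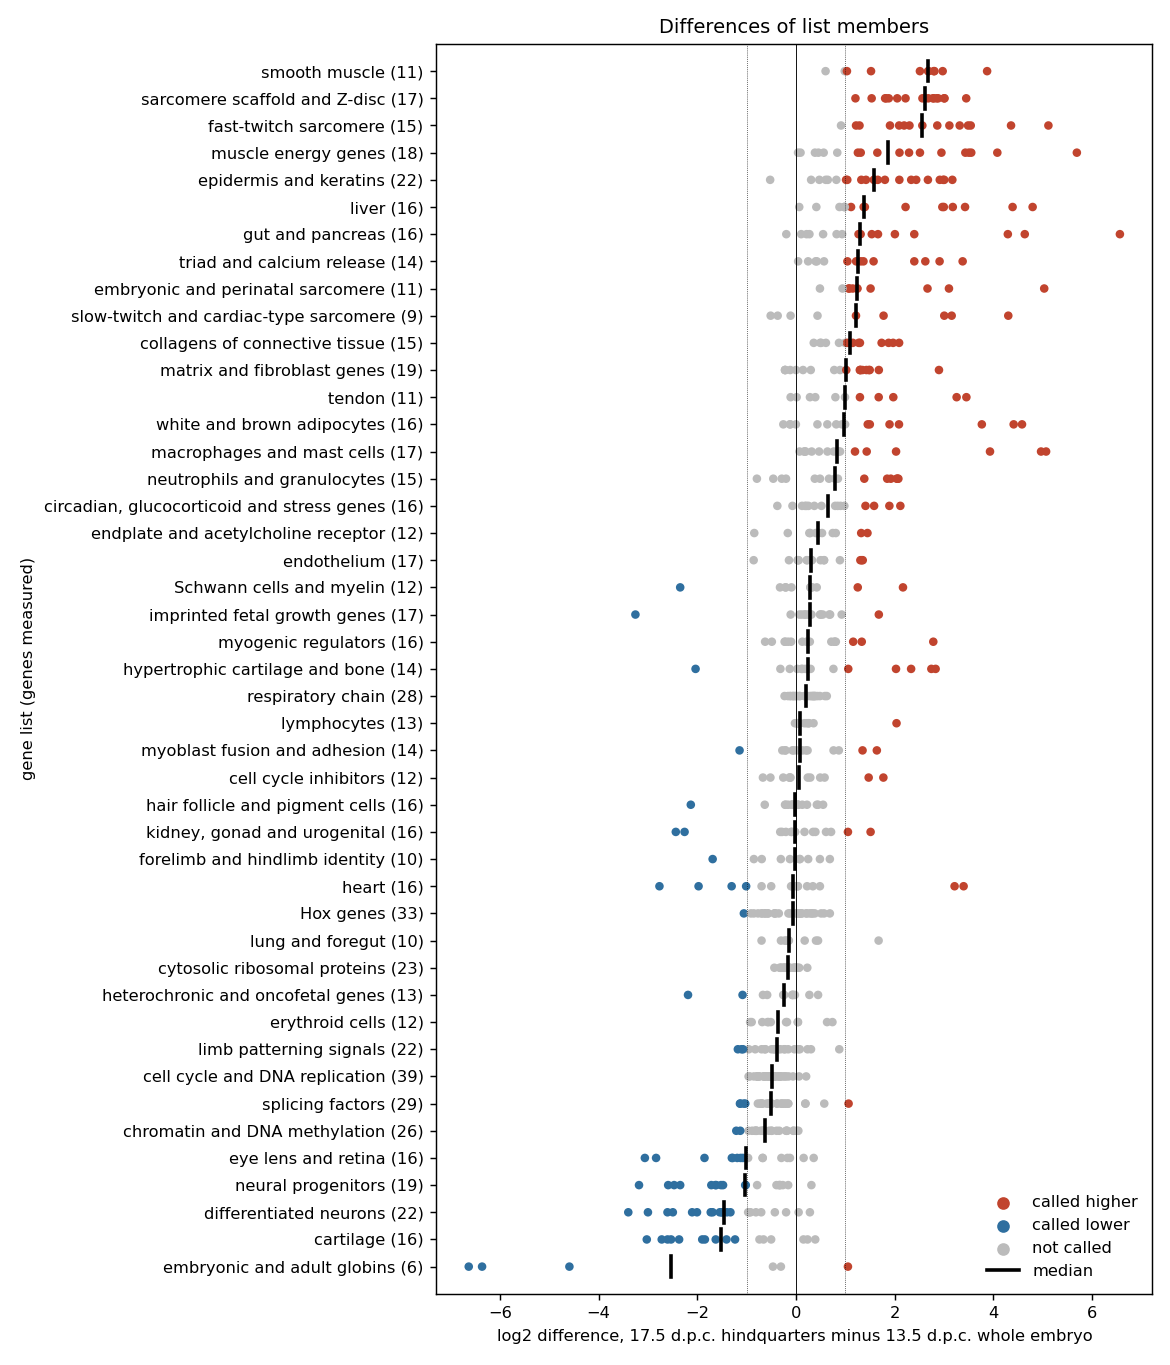
Log2 difference of every measured list member (17.5 d.p.c. hindquarters minus 13.5 d.p.c. whole embryo, n = 5 pools each) in 45 gene lists ordered by their median, with genes called higher in red, called lower in blue and not called in grey; dotted lines mark 2-fold. Smooth muscle and sarcomere lists lie at the top with medians of 2.68, 2.62 and 2.56, and neurons, cartilage and globins at the bottom with medians of -1.45, -1.52 and -2.53.

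Sarcomere genes rose in large numbers, most uniformly those of the scaffold and of fast fibres. All 17 measured genes of the sarcomere scaffold and Z-disc rose, with a median difference of 2.62 and a range from 1.21 for Tcap to 3.45 for Myot, the gene of myotilin. Among them were Neb (nebulin, 3.00), Acta1 (skeletal alpha-actin, 2.80), Des (desmin, 2.68), Actn2 (2.56) and Ttn (titin, 2.22). Of 15 fast-twitch genes 14 rose, with a median of 2.56, and the remaining one, Pvalb, the calcium buffer parvalbumin, had a difference of 0.91. Tnni2, fast troponin I, had 12.93, 13.12, 13.61, 13.07 and 13.31 in hindquarters and 7.99, 8.17, 8.30, 7.83 and 8.14 in embryos (difference 5.12 ± 0.13, adjusted p = 1.54e-10). Fast troponin T, Tnnt3, rose by 4.36, fast troponin C, Tnnc2, by 3.49, the calcium pump gene Atp2a1 by 3.11, and the fast regulatory light chain gene Mylpf by 2.87. Every hindquarters pool lay above every embryo pool for all 15 genes, while the groups did not overlap in either direction for 53.1% of all genes.

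The developmental isoforms differed among themselves in how far they rose. Myh8, perinatal myosin, had 12.30, 12.41, 12.95, 12.30 and 12.70 in hindquarters and 7.33, 7.47, 7.59, 7.39 and 7.72 in embryos, a difference of 5.03 ± 0.13 (adjusted p = 1.82e-10). Myh3, embryonic myosin, had 12.70, 12.99, 13.23, 12.96 and 13.20 in hindquarters and 10.25, 10.41, 10.39, 10.25 and 10.43 in embryos, a difference of 2.67 ± 0.09 (adjusted p = 1.73e-09). So both rose, the perinatal gene 32.8-fold and the embryonic gene 6.35-fold, and the pools did not overlap. The adult fast myosin genes Myh1, Myh2 and Myh4 rose by 2.30, 1.91 and 1.29. Their probe sets were dim, with means that did not exceed the median of their chip in either group. Myh1 was uneven between hindquarters pools, at 6.72, 7.27, 9.12, 7.69 and 7.85, against 5.41, 5.31, 5.53, 5.45 and 5.45 in embryos, with pool 3 the highest. These myosin genes are close paralogues, and how far their probe sets cross-hybridize was not tested. Of the 11 embryonic and perinatal genes 9 rose, with smaller differences for Actc1 (cardiac alpha-actin, also used by embryonic muscle, 1.15) and for the slow troponin genes Tnni1 (1.25), Tnnt1 (1.08) and Tnnc1 (1.08).

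Slow and cardiac-type genes rose less uniformly, 5 of 9. The slow troponin genes, which rose, are not in this count because they were counted above with the developmental isoforms. Mybpc1, slow myosin-binding protein C, rose by 4.31, Myoz2 by 3.16, Csrp3 by 3.01, Myl3 by 1.78 and Myh7, slow myosin, by 1.22. Myl2, the slow and ventricular light chain, had a difference of -0.51, Atp2a2, the slow and cardiac calcium pump, of -0.37 and Tpm3 of -0.11, and these did not reach 2-fold. In the triad, where the membrane signal releases calcium, 9 of 14 genes rose, among them Cacng1 (3.38), Trdn (triadin, 2.62), Ryr1 (the release channel, 2.40) and Cacna1s (the voltage sensor, 1.37), while Ryr3 had a difference of 0.04. Of 18 muscle energy genes 12 rose, led by Ckm, with 13.20, 13.34, 13.71, 13.22 and 13.35 in hindquarters and 7.93, 7.64, 7.70, 7.47 and 7.61 in embryos. The mitochondrial creatine kinase Ckmt2 rose by 4.08 and the glycolytic genes Eno3, Pgam2 and Pygm by 3.55, 3.51 and 3.44. Myoglobin, Mb, had a difference of only 0.38 and the insulin-regulated glucose transporter Slc2a4 of 0.46. Of 28 general respiratory chain subunits 0 reached 2-fold (median 0.20), and 16 passed the adjusted p alone in the higher and 2 in the lower direction, as did 32.3% and 31.4% of all genes. The muscle-type subunits Cox6a2 (2.95), Cox8b (2.29) and Cox7a1 (1.65) did rise.

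**Figure D2:**
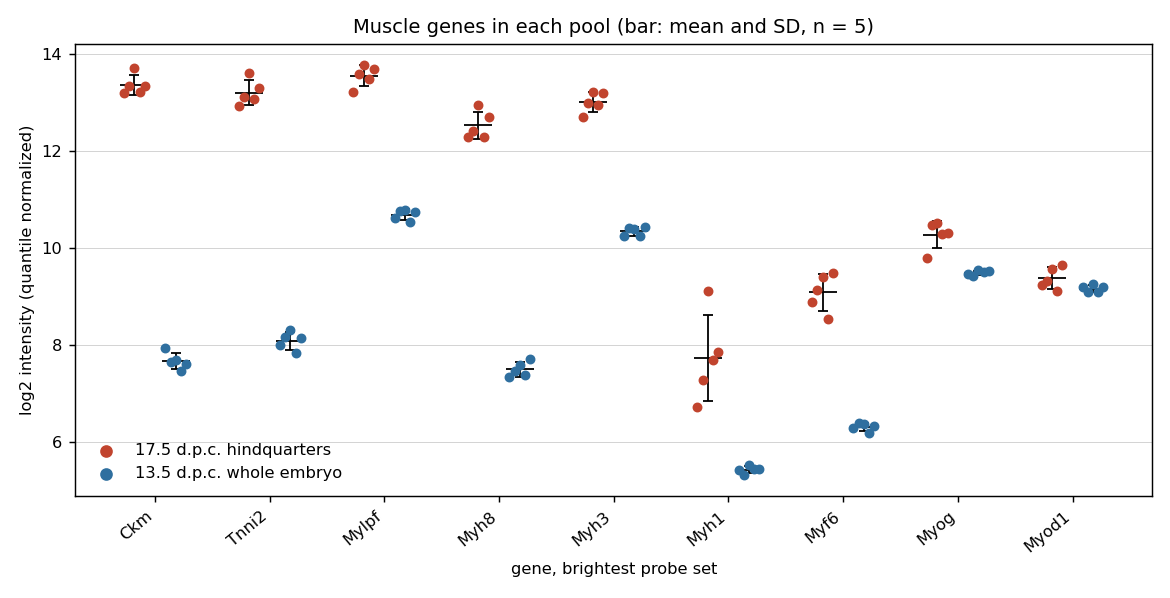
Quantile-normalized log2 intensity of 9 muscle genes in each pool, with 5 hindquarters pools at 17.5 d.p.c. (red) left of 5 whole-embryo pools at 13.5 d.p.c. (blue); bars give mean and SD. Group means of the contractile and energy genes differ by more than 4-fold, with Myh1 uneven between hindquarters pools. Those of Myog and Myod1 differ by less than 2-fold, although the pools of Myog do not overlap.

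A smaller share of the regulators of myogenesis than of the contractile genes reached 2-fold. Of 16 measured, 3 rose (18.8%, against 5.05% of all genes) and none fell, with a median of 0.25. At the adjusted p alone 8 were higher and 4 lower, as were 32.3% and 31.4% of all genes. Myf6, the late myogenic factor MRF4, had 8.89, 9.13, 9.40, 8.54 and 9.48 in hindquarters, against 6.28, 6.38, 6.36, 6.18 and 6.32 in embryos (difference 2.78 ± 0.15, adjusted p = 4.7e-08). Myf5 rose by 1.33 and Mef2c by 1.16, but the mean of the Myf5 probe set did not exceed the median of its chip in either group. Myog, myogenin, had 9.80, 10.48, 10.51, 10.29 and 10.32 in hindquarters and 9.46, 9.43, 9.54, 9.51 and 9.52 in embryos, which is 1.73-fold and separated the pools (adjusted p = 0.000112), but stayed under the fold limit. Myod1 differed by 0.21 (adjusted p = 0.078) and the progenitor gene Pax7 by -0.23 (adjusted p = 0.0638), neither of which passed the test. Pax3 had a difference of -0.63 in its brightest probe set, and 1 of its 3 probe sets was called lower. Both muscle-specific fusion proteins rose, Mymk (myomaker) by 1.35 and Mymx (myomixer) by 1.64, while the adhesion molecule Ncam1, which neurons also express, fell by 1.14. Among 12 endplate genes the receptor subunits Chrna1 (1.45) and Chrng (1.32) rose. Chrng encodes the fetal gamma subunit, and its levels were 9.53, 9.85, 10.10, 9.87 and 9.91 in hindquarters and 8.51, 8.46, 8.55, 8.61 and 8.52 in embryos. The adult epsilon subunit gene Chrne had a difference of -0.17.

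The promoters of fast-twitch genes are shown here because these genes moved together. The 250 bases before the annotated start (RefSeq, GRCm38.p6, 1 start per gene) were searched on both strands for the letters CAGCTG, a form of the E-box to which myogenic factors bind, and TATAAA, the TATA box. The E-box letters were present in 5 of the 10 fast-twitch promoters at hand (50%) and in 12.5% of 14452 promoters of genes on the arrays, and the TATA letters in 3 of the 10 (30.0%) and in 9.0%. The last 100 bases before the start of 3 genes are printed 5′ to 3′ in the direction of transcription, with E-box and TATA letters in capitals: Mylpf at chr7:127211508-127211607 (plus strand), Atp2a1 at chr7:126463074-126463173 (minus strand) and Myh4 at chr11:67237712-67237811 (plus strand).
Mylpf: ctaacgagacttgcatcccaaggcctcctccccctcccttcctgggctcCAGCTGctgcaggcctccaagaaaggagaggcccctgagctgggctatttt
Atp2a1: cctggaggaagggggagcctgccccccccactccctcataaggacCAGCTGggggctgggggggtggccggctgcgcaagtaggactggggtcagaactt
Myh4: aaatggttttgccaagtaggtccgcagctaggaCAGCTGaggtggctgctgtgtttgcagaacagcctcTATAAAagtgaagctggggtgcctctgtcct
The E-box letters begin at -51 in Mylpf, -55 in Atp2a1 and -67 in Myh4, counted from the start. These are matches of letters and not measured binding sites. The genes differed in size of change, with Atp2a1 and Mylpf rising by 3.11 and 2.87 and Myh4 by 1.29.

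Smooth muscle showed the highest list median, 2.68, and 9 of its 11 genes rose. Actg2, the enteric smooth muscle actin, rose by 3.88, the myosin gene Myh11 by 2.98, Tagln by 2.81 and Cnn1 by 2.79. Acta2, vascular smooth muscle actin, had 13.08, 13.18, 13.32, 13.04 and 13.43 in hindquarters and 12.14, 12.26, 12.25, 12.20 and 12.25 in embryos, a 1.98-fold difference just under the limit. Des (2.68) and Synpo2 (2.68) are also expressed in skeletal muscle. When each gene was taken as the median of all its probe sets, the list median was 1.52, below those of fast-twitch genes (2.30) and of the scaffold and Z-disc (2.28). The endothelial list moved little in comparison, with Lyve1 (1.35), Pecam1 (1.33) and Cd34 (1.31) rising among 17 genes and a median of 0.31.

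Cartilage was the connective tissue in which genes fell. Of 16 genes 10 fell and none rose (median -1.52). Col2a1, the main cartilage collagen, had 9.91, 10.02, 9.97, 11.97 and 10.31 in hindquarters and 12.88, 12.97, 12.98, 12.95 and 13.07 in embryos (difference -2.53 ± 0.33, adjusted p = 4.85e-05). All hindquarters pools were below all embryo pools, but pool 4 was about 2 log2 units above pools 1 to 3. Sox9, the master regulator of chondrocytes, was uniform, with 6.74, 6.76, 6.60, 6.70 and 6.59 in hindquarters and 8.67, 8.50, 8.50, 8.65 and 8.57 in embryos. Matn1 (-3.03), Epyc (-2.72), Cnmd (-2.60) and Col9a1 (-2.37), all genes of cartilage matrix, also fell. Acan, aggrecan, had a difference of -0.74, and Col11a1, Sox6 and Chad were slightly positive (0.24, 0.15 and 0.39) and did not reach 2-fold.

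Bone genes went the other way in part, with 5 of 14 rising. Ibsp, bone sialoprotein, had 9.35, 9.38, 9.10, 9.51 and 9.59 in hindquarters, and 5.92, 6.90, 7.11, 5.8 and 7.05 in embryos, where pools 1 and 4 were the lowest (difference 2.83 ± 0.26, adjusted p = 2.43e-06). The osteocyte gene Dmp1 rose by 2.75, the matrix protease Mmp13 by 2.34, and the osteoclast genes Ctsk and Mmp9 by 2.03 and 1.06. Col10a1, the marker of hypertrophic cartilage, had a difference of 0.11, Sp7, the osteoblast factor, of 0.03, and Dlx5, a homeobox gene that is also active in the embryonic head, fell by 2.04.

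Some tendon and many general matrix genes rose, and none fell. Tnmd, tenomodulin, and Kera, keratocan, rose by 3.26 and 3.46 among 5 of 11 tendon genes, while the tendon transcription factor genes Scx (-0.11) and Mkx (0.28) did not reach 2-fold. Of 15 connective-tissue collagens 9 rose (median 1.09), led by all 3 collagen VI chains, Col6a1 (2.09), Col6a3 (1.88) and Col6a2 (1.74). Of 19 matrix genes 10 rose, from Mfap5 (2.90) and Dcn (decorin, 1.68) to Ogn (1.02). Fbn2, a fibrillin of the embryonic matrix, did not pass the test (adjusted p = 0.999).

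Epidermal genes rose with the widest spread between hindquarters pools. Of 22 genes 16 rose and none fell (median 1.59), and these were mostly genes of the cornifying layers, Krt1 (3.17), Lor (loricrin, 3.01), Krt10 (2.98) and Flg (filaggrin, 2.92). Krt10 had 10.94, 10.54, 8.20, 13.62 and 10.88 in hindquarters, against 7.89, 7.90, 7.87, 7.65 and 7.95 in embryos (difference 2.98 ± 0.73, adjusted p = 0.00412). Pool 4 was the highest and pool 3 lay only slightly above the embryos, and the brightest probe set of Lor showed the same order at these ends, with 11.72, 11.94, 10.35, 12.16 and 11.71 in hindquarters and 8.53, 8.59, 8.56, 8.63 and 8.53 in embryos. Basal-layer genes changed less, Krt14 by 1.58 and Krt5 by 1.02, and Trp63 had a difference of 0.60. Of 16 hair follicle and pigment genes none rose and Lhx2, which is also a forebrain and eye factor, fell by 2.13.

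Adipocyte genes were higher in part. Of 16 fat genes 7 rose and none fell. Fabp4, the adipocyte fatty acid-binding protein, had 11.02, 11.16, 11.92, 10.98 and 11.43 in hindquarters and 6.52, 6.80, 6.94, 6.50 and 6.84 in embryos (difference 4.58 ± 0.17, adjusted p = 2.12e-09). Adipoq, adiponectin, varied more, with 8.41, 7.88, 11.06, 8.44 and 9.88 in hindquarters and 5.34, 5.32, 5.39, 5.31 and 5.46 in embryos, and pool 3 was the highest for both. Car3, which is abundant in fat and slow muscle, rose by 4.41, and the adipogenic factors Pparg and Cebpa by 1.46 and 1.5. Lep and Ucp1, genes of white and brown fat, did not pass the test (adjusted p = 0.98 and 0.149).

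Embryonic globins fell more than any other genes. Hba-x, embryonic zeta-globin, had 7.76, 7.86, 7.65, 7.74 and 7.51 in hindquarters and 14.08, 13.94, 14.10, 14.10 and 14.13 in embryos (difference -6.37 ± 0.07, adjusted p = 4.81e-13). In its brightest probe set Hbb-y, the embryonic epsilon-type globin, had 7.73, 7.51, 7.27, 7.38 and 7.19 in hindquarters and 14.10, 13.89, 14.08, 14.12 and 14.08 in embryos. Hbb-bh1 fell by 4.59 in its brightest probe set. For all 3 the groups were more than 4 log2 units apart. Hbb-b2, an adult beta-globin gene, rose 2.08-fold, with 10.00, 10.16, 10.01, 9.85 and 9.94 in hindquarters and 8.75, 8.82, 9.03, 8.96 and 9.12 in embryos. The adult alpha-globins Hba-a1 and Hba-a2 had differences of -0.31 and -0.47 in probe sets that name each alone. Adult globin genes are near-identical copies, and these small values are uncertain for that reason. Other erythroid genes did not follow either way, with 0 of 12 called and Alas2 at 0.63, Klf1 at -0.93 and Gata1 at -0.90. Their mean was 10.27, 9.91, 9.70, 9.93 and 8.89 in hindquarters and 9.92, 10.06, 9.98, 9.93 and 10.09 in embryos, with pool 5 the lowest.

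Among white cells the mast cell genes changed most. Mcpt4, a mast cell protease, had 11.15, 10.28, 11.37, 10.98 and 10.46 in hindquarters and 5.82, 5.77, 5.75, 5.79 and 5.76 in embryos (difference 5.07 ± 0.18, adjusted p = 1.54e-09). The other mast cell proteases Cma1 and Cpa3 rose by 4.97 and 3.93, and Hdc, which makes histamine, by 4.85, while Kit, a receptor of mast cells and of many other cells, had a difference of 0.07. Of 15 granulocyte genes 6 rose (40%, against 5.05% of all genes), including S100a8 (2.08), S100a9 (2.06), Ngp (2.04) and Camp (1.92). The list was not uniform, since 9 genes were not called and 4 of the 15 had negative differences, 2 of them passing the adjusted p alone. S100a8 had 11.23, 10.92, 10.84, 11.78 and 9.25 in hindquarters and 8.97, 8.83, 8.72, 8.46 and 8.66 in embryos, with pool 5 again the lowest of the hindquarters. Macrophage genes rose for Lyz1 (2.03), Lyz2 (1.43) and Mrc1 (1.20), whereas the complement genes C1qa, C1qb and C1qc had differences of 0.64, 0.16 and 0.32. Lymphocyte genes were close to even (median 0.08). Of their 13 genes only Thy1, which neurons and fibroblasts also express, rose.

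The label says hindquarters, yet genes of abdominal organs were high in these pools. Of 16 gut and pancreas genes 9 rose and none fell, and they were genes of the intestine. Besides Fabp2, they included Lgals4 (4.64), Fabp1 (4.30), Vil1 (villin, 2.40), Muc2 (1.31) and the intestinal homeobox genes Cdx2 (1.66) and Cdx1 (1.27). Cdx2 had 8.18, 8.40, 8.29, 8.20 and 8.14 in hindquarters and 6.52, 6.47, 6.64, 6.63 and 6.63 in embryos. The pancreas genes Pdx1, Ptf1a and Cpa1 had differences of 0.11, 0.27 and 0.22. Of 16 liver genes 10 rose and none fell (median 1.39), among them Apoc3 (4.80), Cps1 (the first enzyme of the urea cycle, 4.39) and the fibrinogen genes Fgg, Fgb and Fga (3.18, 3.00 and 2.97). Apoc3 had 11.63, 11.35, 10.17, 10.83 and 10.24 in hindquarters, against 6.17, 6.08, 5.94, 6.03 and 6.01 in embryos. Albumin, Alb, which the embryonic liver already makes, had 14.36, 14.26, 14.01, 14.31 and 13.43 in hindquarters and 12.96, 13.28, 13.16, 12.98 and 13.12 in embryos, and Afp, alpha-fetoprotein, had a difference of 0.41. The mean of the liver list was 12.52, 12.35, 11.80, 12.26 and 10.96 in hindquarters pools 1 to 5 and 9.80, 10.35, 9.97, 9.74 and 9.97 in embryo pools 1 to 5. Pool 5 was the lowest hindquarters pool in the liver, erythroid and granulocyte lists alike.

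The hindquarters pools were divided by a lung gene. Sftpc, surfactant protein C, had 6.62, 10.80, 6.70, 10.67 and 7.04 in hindquarters and 6.66, 6.69, 6.79, 6.56 and 6.75 in embryos, so that pools 2 and 4 were high and pools 1 and 3 lay within the embryo range. The gene did not pass the test (adjusted p = 0.0992), and none of the 10 lung genes did with 2-fold. Without pools 2 and 4 the counts over all probe sets were 1502 higher and 1286 lower, against 1529 and 1243 with all pools. Kidney and urogenital genes were mixed, with 2 of 16 higher and 2 lower (12.5% each, against 5.05% and 2.82% of all genes). Slc12a1, a transporter of the kidney tubule (1.51), and the urothelial gene Upk3a (1.05) were higher. Lhx1 (-2.26) and Lhx9 (-2.44), which are also neural factors, were lower. Of 16 heart genes 4 fell (25%, against 2.82% of all genes) and 2 rose (12.5%, against 5.05%). Nppa, atrial natriuretic peptide, had 6.11, 6.22, 6.12, 6.12 and 6.20 in hindquarters and 8.97, 8.90, 8.95, 8.92 and 8.88 in embryos (difference -2.77 ± 0.04, adjusted p = 9.34e-12), and Myl7 (-1.98), Myh6 (-1.30) and Tnni3 (-1.01) fell as well. Sln, sarcolipin, and Smpx, which skeletal muscle also uses, rose by 3.40 and 3.22.

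**Figure D3:**
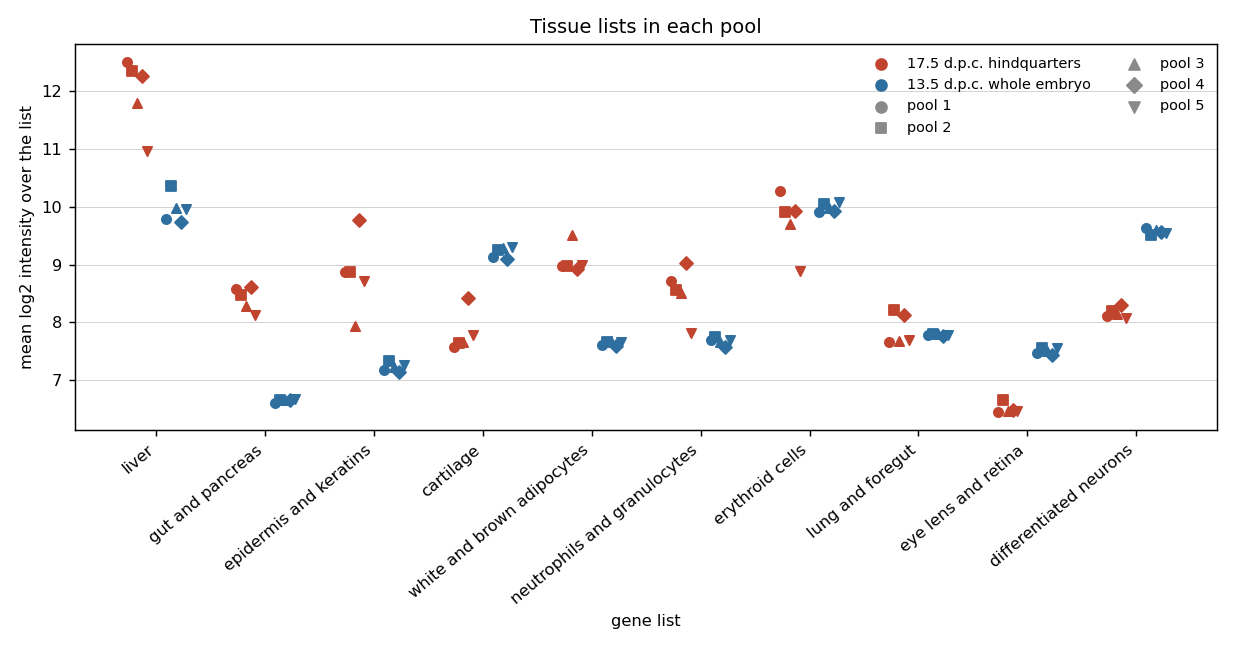
Mean log2 intensity over the members of 10 tissue lists in each pool, with hindquarters pools at 17.5 d.p.c. (red) left of whole-embryo pools at 13.5 d.p.c. (blue) and a symbol for each pool number. Hindquarters pools spread widely for liver (10.96 to 12.52), epidermis (7.94 to 9.77) and erythroid genes (8.89 to 10.27). Embryo pools lie closer together for these lists, and spread most for liver (9.74 to 10.35).

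Brain and eye genes were lower in hindquarters. Of 22 neuronal genes 13 fell and none rose (median -1.45), and of 19 neural progenitor genes 11 fell and none rose (median -1.03). Sox2, a stem cell factor of the neural tube, had 5.50, 5.16, 5.58, 5.31 and 5.21 in hindquarters and 8.64, 8.40, 8.56, 8.63 and 8.45 in embryos (difference -3.18 ± 0.09, adjusted p = 2.91e-10). The proneural factor Neurog2 (-2.59), Zic1 (-2.47), the radial glia gene Fabp7 (-2.35) and the fore- and midbrain factors Emx2 (-1.72) and Otx2 (-1.62) also fell. So did Neurod6, a cortical factor (-3.0), Dcx, doublecortin (-2.61), and Tubb3, neuronal tubulin (-2.50). The filament genes Nefl (-1.73) and Nefm (-1.40) fell too, whereas the filament genes Prph and Nefh had differences of 0.05 and 0.28. Of 12 Schwann cell and myelin genes (median 0.29) Mal (2.17) and Pmp22 (1.25) rose and Fabp7, which is also on the progenitor list, fell. Of 16 lens and retina genes 8 fell and none rose, and all of the 8 are crystallins, from Cryga (-3.06) and Cryba1 (-2.84) to Crybb3 (-1.08). Cryaa, lens alpha-crystallin, had 7.10, 7.47, 7.12, 7.32 and 7.24 in hindquarters and 9.12, 9.17, 9.09, 9.0 and 9.14 in embryos.

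Some of the called transcripts carry microRNAs, and the mature sequences of some are printed here. Most relate to the neural, muscle, heart and cartilage genes above, while the hosts Ska2 and 2610318N02Rik are not among those genes. The arrays measured the host transcripts and not the mature microRNAs. By their positions in GRCm38.p6, 33 genes called higher and 34 called lower contain a microRNA on the same strand or are annotated as one. For this count a gene was taken as called if any of its probe sets was called, not only its brightest. Only called genes were searched, so the share among all genes was not measured and nothing is read from these counts. Those shown were chosen after their values were seen. The probe set annotated as Mir133b, a microRNA of muscle on chromosome 1, rose by 2.26 (adjusted p = 9.72e-07), and Mir206 lies 3686 bases before it. C130071C03Rik on chromosome 13, which contains Mir9-2, fell by 3.50 in its most changed probe set, with 4.62, 4.71, 4.86, 4.94 and 4.91 in hindquarters and 8.62, 8.15, 8.20, 8.35 and 8.22 in embryos. Gm3764 on chromosome 3, which contains Mir9-1, fell by 1.37. Both encode the same miR-9-5p, a microRNA of neural progenitors. Myh7 and Myh6, neighbours on chromosome 14 that moved in opposite directions (1.22 and -1.30), host miR-208b and miR-208a. Wwp2 on chromosome 8, which hosts the cartilage microRNA miR-140, fell by 1.52, and 2610318N02Rik on chromosome 16 and Ska2 on chromosome 11, hosts of miR-130b and miR-301a, fell by 1.19 and 1.13. The RefSeq sequences follow 5′ to 3′, with the seed (bases 2 to 8) in capitals.
miR-133b-3p: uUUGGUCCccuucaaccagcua
miR-9-5p: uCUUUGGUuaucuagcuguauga
miR-208b-3p: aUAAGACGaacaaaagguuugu
miR-208a-3p: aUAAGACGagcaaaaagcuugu
miR-140-3p: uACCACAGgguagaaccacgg
miR-130b-3p: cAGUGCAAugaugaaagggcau
miR-301a-3p: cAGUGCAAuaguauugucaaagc
The pair from the myosin genes shares the seed UAAGACG although the hosts moved apart, and the pair from Ska2 and 2610318N02Rik shares the seed AGUGCAA with hosts that both fell.

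Patterning genes mostly stayed under 2-fold. Of 22 limb patterning genes 3 fell (13.6%, against 2.82% of all genes) and none rose (median -0.39). Those that fell were the signalling genes Wnt5a (-1.10) and Grem1 (-1.07) and the homeobox gene Msx1 (-1.18). At the adjusted p alone 15 of the 22 were lower and 2 higher, as were 31.4% and 32.3% of all genes. The hindlimb genes Pitx1 and Tbx4 had differences of -0.31 and 0.25 and the forelimb gene Tbx5 of 0.49, none of which reached 2-fold. Of the 10 genes of limb identity only Isl1, a hindlimb factor that motor neurons also express, was called, and it fell (-1.69). Hox genes mark position along the body axis, with the low-numbered groups in front. Of 33 measured, only Hoxd1 passed the limit in its brightest probe set, and it fell (3.03%, near the 2.82% of all genes that fell). It had 5.19, 5.18, 5.02, 5.00 and 5.14 in hindquarters and 6.20, 6.06, 6.23, 6.12 and 6.20 in embryos. The median difference was -0.63 over 10 genes of paralogue groups 1 to 4, 0.01 over 9 genes of groups 5 to 8, 0.07 over 9 genes of groups 9 to 11 and 0.22 over 5 genes of groups 12 and 13. Dimmer probe sets of Hoxa3 (-1.21) and Hoxb3 (-1.25) also fell, while their brightest had differences of 0.38 and -0.63. Exceptions ran in both directions, Hoxa3 at 0.38 and Hoxb1 at 0.12 among the anterior genes and Hoxd12 at -0.35 and Hoxd13 at -0.42 among the posterior ones. With the values as deposited the median of all Hox genes was -0.28, against -0.07 here, and the median over all genes was -0.14, against 0.01 here.

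**Figure D4:**
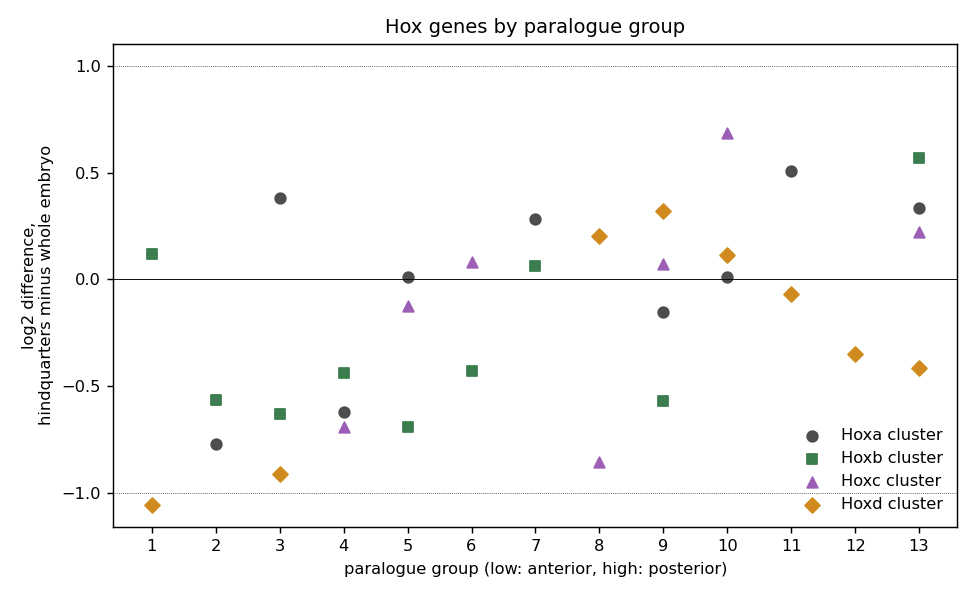
Log2 difference (17.5 d.p.c. hindquarters minus 13.5 d.p.c. whole embryo, n = 5 pools each) of 33 Hox genes by paralogue group, with a symbol for each cluster; dotted lines mark 2-fold. Groups 1 to 4 lie mostly below 0 (median -0.63) and groups 12 and 13 on both sides of it (median 0.22), and in brightest probe sets only Hoxd1 lies beyond the dotted lines.

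Cell division genes were mostly lower by small amounts. None of 39 genes of cell cycle and DNA replication reached 2-fold, but 36 passed the adjusted p alone in the lower direction (31.4% of all genes did) and 1 in the higher, with a median of -0.49. The largest differences were those of the centromere histone Cenpa (-0.96), the nucleotide reductase subunit Rrm2 (-0.94) and the replication helicase subunit Mcm5 (-0.85). Top2a had 10.84, 10.79, 10.64, 10.80 and 10.73 in hindquarters and 11.20, 11.25, 11.24, 11.28 and 11.28 in embryos, whereas Mki67, the Ki-67 proliferation antigen, had 11.74, 11.42, 11.54, 11.36 and 11.37 in hindquarters and 11.36, 11.46, 11.39, 11.48 and 11.43 in embryos and did not pass the test (adjusted p = 0.472). Of 12 genes listed as cell cycle inhibitors 2 rose (16.7%, against 5.05% of all genes), Ccng1 by 1.77 and Cdkn1a, p21, by 1.47. The list as a whole was close to even (median 0.06), with 6 positive and 6 negative differences. At the adjusted p alone 6 were higher and 3 lower, against 32.3% and 31.4% of all genes. Cdkn1a had 10.80, 10.95, 11.11, 11.07 and 11.29 in hindquarters and 9.55, 9.62, 9.60, 9.49 and 9.60 in embryos, while Cdkn1c and Cdkn1b had differences of 0.24 and -0.13.

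Promoters of these genes are shown because the members moved together by small amounts. CCAAT, the box bound by NF-Y, was found on either strand in 24 of 32 promoters of the list (75%) and in 35.8% of all promoters, TTTGAA, the core of the CHR element of mitotic genes, in 7 of 32 (21.9%) and in 12%, and TTCGCGC, a form of the E2F site, in 3 of 32 (9.4%) and in 2.0%. Capitals mark CCAAT and TTTGAA letters on either strand, and the stretches end at the base before the start. They are Cdk1 at chr10:69352913-69353012, Cdc20 at chr4:118437344-118437443 and Top2a at chr11:99024190-99024309, all on the minus strand and printed 5′ to 3′ in the direction of transcription.
Cdk1: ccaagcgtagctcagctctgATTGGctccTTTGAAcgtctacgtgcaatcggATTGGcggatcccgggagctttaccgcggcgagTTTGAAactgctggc
Cdc20: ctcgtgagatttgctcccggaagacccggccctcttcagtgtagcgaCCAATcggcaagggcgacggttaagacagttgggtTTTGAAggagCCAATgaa
Top2a: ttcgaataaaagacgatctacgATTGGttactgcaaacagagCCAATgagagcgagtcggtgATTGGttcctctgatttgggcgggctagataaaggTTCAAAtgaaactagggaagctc
The differences of these 3 genes were -0.35, -0.41 and -0.49. Letters alone say nothing about binding.

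RNA-binding and chromatin genes leaned in the same direction. Of 29 splicing factors 4 fell (13.8%, against 2.82% of all genes) and 1 rose (3.45%, against 5.05%). Sf3a1 (-1.14), Hnrnpl (-1.13), Hnrnpa2b1 (-1.06) and Ptbp2, a neuronal factor (-1.03), fell, and Mbnl2 (1.07), a regulator of fetal-to-adult splicing, rose. At the adjusted p alone 22 were lower and 3 higher, against 31.4% and 32.3% of all genes. Of 26 chromatin genes Cbx2 (-1.21) and Chd7 (-1.13) fell in brightest probe sets (7.69%, against 2.82% of all genes). A dimmer probe set of Chd4 fell by 1.34. Hmga2, an architectural protein of growing embryonic tissue and a let-7 target, had 9.80, 9.91, 9.77, 9.93 and 9.99 in hindquarters and 12.21, 11.86, 12.19, 12.14 and 11.95 in embryos (difference -2.19 ± 0.08, adjusted p = 1.67e-09), and Dusp9 fell by 1.08. The let-7 regulators Lin28a and Lin28b had differences of -0.26 and -0.06. Of 17 imprinted genes only Dcn rose and Nnat fell in brightest probe sets (5.88% each way, against 5.05% and 2.82% of all genes). A dimmer probe set of Meg3, another imprinted gene, rose by 1.04. Igf2, a fetal growth factor, had 13.98 to 14.10 in hindquarters and 13.64 to 13.75 in embryos, a difference of 0.31 that did not reach 2-fold. None of 23 cytosolic ribosomal protein genes reached 2-fold (median -0.15), nor did any of 4 sex-linked transcripts. Among 16 stress and glucocorticoid genes 4 rose, Zbtb16 (2.12), Cebpd (1.89), Fos (1.58) and Pdk4 (1.41).

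The Mstn-null pools, 5 of hindquarters and 5 of whole embryos, share no sample with the wild-type pools and gave nearly the same contrast. Of the 1529 probe sets that rose in wild-type, 1281 (83.8%) also rose in Mstn-null, and of the 1243 that fell, 1007 (81.0%) also fell; 3.18% and 2.52% of all probe sets did so in Mstn-null. Across 18193 genes the differences had a Pearson r of 0.971 (genes are not independent replicates). A test of the difference between genotypes in this contrast, fitted to all 20 pools, called none of 45037 probe sets, while 6.32% had an unadjusted p under 0.05. The medians in wild-type and Mstn-null were 2.56 and 2.75 for fast-twitch genes, 2.62 and 2.61 for the scaffold and Z-disc, 1.24 and 1.24 for embryonic and perinatal sarcomere genes, and 1.22 and 0.65 for slow-twitch and cardiac-type genes. Liver genes were farthest apart, with a median of 1.39 in wild-type and 0.47 in Mstn-null. The 3 genes with the largest gap were Fgg (3.18 and 1.04), Fga (2.97 and 0.90) and Fgb (3.00 and 0.995), with adjusted p of 0.775, 0.798 and 0.725 for the gap. In the Mstn-null hindquarters pools 1 to 5 the mean of the liver list was 11.71, 11.53, 11.65, 11.02 and 8.33, and pool 5 lay below all 5 Mstn-null embryo pools (9.90 to 10.31).

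**Figure D5:**
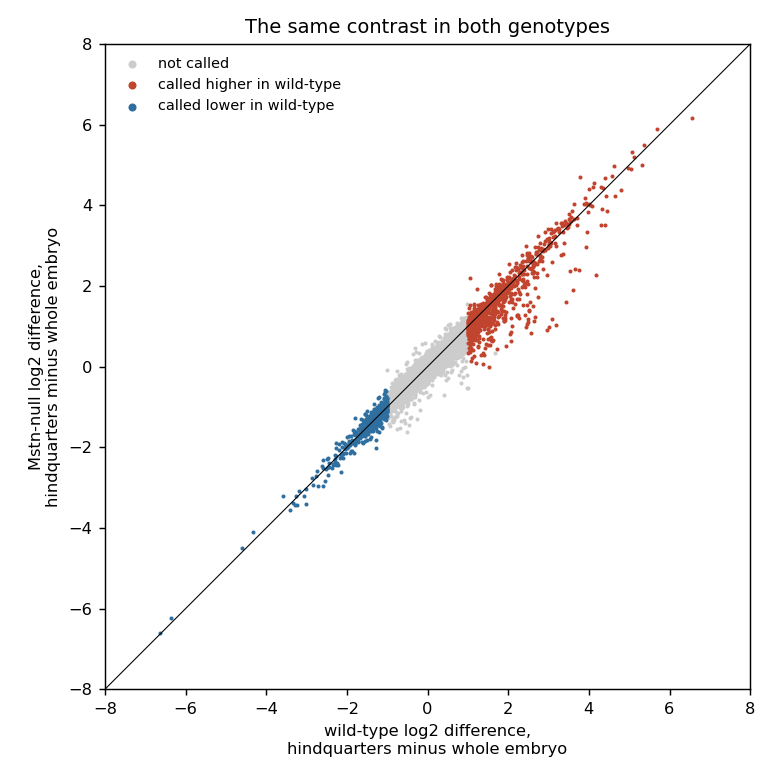
Log2 difference (17.5 d.p.c. hindquarters minus 13.5 d.p.c. whole embryo) of 18193 genes in wild-type (x axis) and in Mstn-null pools (y axis), 5 pools per group, with the line of equality; colour marks genes called in wild-type. The points follow the line (r = 0.971), and a group of genes called higher in wild-type lies below it, among them Fgg at 3.18 and 1.04.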

How the data were processed

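The authors summarised each time point separately by RMA (affy; its version is not given in the sources used here), and the deposited values are log2 intensities, here from 3.28 to 15.3. Array medians were 7.79 to 7.86 in hindquarters and 8.05 to 8.09 in embryos on MOE430A, and 6.89 to 6.91 and 7.06 to 7.10 on MOE430B, so the 10 wild-type arrays of each chip were quantile normalized together. The number of pools limits the precision. Of 22690 and 22575 probe sets per chip, 64 controls each were left out, and 100 on both chips were taken from MOE430A. In these 100 the MOE430A array matched the MOE430B array of its own pool number best for 4 of 5 hindquarters pools and 5 of 5 embryo pools. The platform annotation gives 1 gene for 34945 probe sets, several for 932 and none for 9160; symbols were updated by gene ID for 34741. Mstn was not analysed here.

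Differences (hindquarters minus embryo) were fitted by lmFit and eBayes of limma 3.58.1, run under R 4.3.3, adjusted over all probe sets by Benjamini-Hochberg, and called under 0.05 at 2-fold or more. A gene is its brightest probe set by mean over the 10 arrays. Detection calls were not used here, so levels near background were not marked. Genes named are the 12 with the largest difference in each direction, members of lists of up to 18 genes or the 8 with the largest differences in longer lists, and genes with opposite calls; others named were chosen after their values were seen. The members and the 46 gene lists were chosen with earlier results of these data known. The labels call the pools biological replicates. Replicate numbers are shared between groups but do not pair pools. The pipeline was tested on simulated data. Alternatives covered normalization, dim probe sets, adjustment, threshold, moderation, chips, probe sets per gene, replicate numbers as block, and each pool left out. Figures were drawn with Python 3.11.15 and matplotlib 3.10.9.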

Additional observations from a re-analysis of the deposited data

Results flagged for a closer look

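A pool was set apart where its gap to the nearest pool of its group was more than 0.71 of the whole range of the 5 pools. Of 204 such checks (102 for genes, 90 for list means and 12 for array measures) 12 were positive, 6 in hindquarters and 6 in embryos, and chance gives about 1 in 20.

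In hindquarters, Col2a1 was highest in pool 4 at 11.97, with the other 4 pools at 9.91 to 10.31, and the mean of the cartilage list was highest in the same pool at 8.42, against 7.57 to 7.77. Lor was lowest in pool 3 at 10.35, the others lying at 11.71 to 12.16, and the adipocyte list was highest in pool 3 at 9.52, the others lying at 8.93 to 8.99. The lens and retina list was highest in pool 2 at 6.65, the others lying at 6.44 to 6.47. The mean correlation with the group on MOE430B was lowest for pool 1 at 0.9495, against 0.9807 to 0.9838.

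In embryos, Hbb-y and Hba-x were lowest in pool 2 at 13.89 and 13.94, with the other pools at 14.08 to 14.12 and 14.08 to 14.13, and the array of pool 2 on MOE430A had the lowest mean correlation with its group, 0.9962, against 0.9976 to 0.9979. Krt10 was lowest in pool 4 at 7.65 (others 7.87 to 7.95). The gut and pancreas list was lowest in pool 1 at 6.60 (others 6.65 to 6.66). On MOE430B the array of pool 3 had the lowest correlation, 0.9945 (others 0.9961 to 0.9966). No cause was tested for any of these.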

How the results depend on the processing

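Of the 2772 called probe sets, 2439 kept the call with the values as deposited, 2584 with arrays centred on their medians, 2763 with both genotypes normalized together, 2589 to 2747 with 1 pool left out and 2603 without hindquarters pools 2 and 4 (chosen after seeing the data), and none changed sign under these. Counts of higher and lower probe sets were 1256 and 1943 as deposited (39.3% higher, against 55.2%), 1824 and 1092 when centred (62.6%), 1188 and 907 without dim probe sets, 12789 and 14098 at adjusted p alone, 1883 and 1915 tested against 1.5-fold, 918 and 513 with 1 probe set per gene, and 1503 to 1580 and 1207 to 1280 with 1 pool left out. Replicate numbers did not pair pools, since deviations of same-numbered pools correlated at -0.06, 0.15, -0.13, -0.00 and -0.03 and own numbers matched best for 1 of 5. With the replicate block 1529 and 1243 were called and all 2772 calls were kept.

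Of 828 list medians recomputed under alternatives, 74 moved beyond the spread between pools and 1 changed sign. Only those of the lists with the main results are given. As deposited they were -1.59 for neurons, -1.12 for lens and retina, -0.65 for cell cycle and -0.28 for Hox genes. The median that changed sign was that of cell cycle inhibitors as deposited, -0.081 against 0.064. When centred they were -0.84 for neural progenitors, -1.36 for neurons and -0.89 for lens and retina. Without dim probe sets, which leaves fewer genes, they were 2.99 for fast-twitch, -1.58 for neural progenitors, 2.01 for gut, -1.58 for lens and retina and 0.012 for Hox genes. Over all probe sets of a gene they were 2.28 for scaffold and Z-disc, 1.52 for smooth muscle and -0.20 for Hox genes. The cause was not tested.

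The genotype difference was called for 0 probe sets with all pools (2845 at an unadjusted p under 0.05) and for 0 to 2 with 1 pool left out (2 without wild-type hindquarters pool 5, 1 without wild-type embryo pool 5, 2 without Mstn-null hindquarters pool 1). Of 261 calls of named genes, 21 were lost under at least 1 of 17 alternatives and 240 under none that gave a value (35 called probe sets were removed when dim ones were left out, and thresholds, moderation and probe sets per gene were not varied gene by gene). Lost were those of Col5a2, Crygb, Dsg1a, Dusp9, En2, Hbb-b2, Hnf4a, Hnrnpa2b1, Hoxd1, Jsrp1, Krt17, Krt5, Krt77, Lhx5, Lmod1, Mbnl2, Mmp9, Ogn, Ptbp2, Tnni3 and Upk3a. Removed as dim among the higher were Cdx1, Cox7a1, Dsc1, Dsg1a, Flg, Klk10, Krt17, Lmod1, Mmp13, Myf5, Myh1, Myh2, Myh4, Pdk4, Pparg, Slc12a1, Slc5a1 and Upk3a. Among the lower they were Col9a2, Cryba4, Crygb, Crygd, Dusp9, En2, Grem1, Hoxd1, Lhx1, Lhx5, Lhx9 (brightest probe set), Matn3, Myh6, Neurod6, Otx2, Snap25 and Tnni3. The number of pools and signal near background limit what small differences can show.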
